A study of Nothobranchius furzeri with 15 samples.

Results

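The effect of the higher of 2 rotenone doses on the killifish brain was examined by setting 5 libraries of fish given rotenone at 150 pM against 5 libraries of fish given DMSO, the solvent, alone. These are 10 of the 15 libraries of the study. All fish were male turquoise killifish (Nothobranchius furzeri) of the inbred strain GRZ, aged 9 weeks, and all libraries were made from brain. The libraries at 150 pM were those with title numbers 8 to 12, which are replicates 5, 6, 2, 3 and 4 in the order of listing, and the DMSO libraries were those with title numbers 1 to 5. A further library labelled 150 pM, replicate 1, was left out because its title number, 1, lies apart from the others and below those of the 15 pM libraries (2 to 5), which puts its dose in doubt. Its values and those of the 4 libraries at 15 pM are given where they bear on a result. Route and length of treatment are not stated in the labels. Separate fish per library are not stated either, and p-values here measure spread among libraries that may be technical.

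Rotenone is a lipophilic plant compound that enters cells freely and blocks complex I, the entry point of electrons from NADH into the mitochondrial respiratory chain, by preventing their transfer to ubiquinone. Neurons depend heavily on respiration, and rotenone at toxic doses is used in rodents to damage dopaminergic neurons. The turquoise killifish is an annual fish whose short life makes it a vertebrate model of ageing, and GRZ is its shortest-lived laboratory strain. The genes are listed by identifiers that neither the deposited tables nor the gene table used here pair with names, so that complex I subunits, markers of neurons and glia and other gene groups could not be looked up, and the label of brain was not checked against markers. Results are therefore given for groups of genes set by size of change, length and level, and for 4 identifiers.

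The depth of the DMSO libraries was 19689907 to 23210889 counts and that of the libraries at 150 pM was 19401441 to 23200181, and 18916 of 26739 genes had enough counts to be tested. Between 21547 and 21738 genes had at least 1 count in each of the 10 libraries. Neither the total count nor the number of genes with a count separated the groups (exact permutation test, two-sided, p = 0.579 and 0.984, adjusted 0.789 and 0.984 over 8 library properties). With 5 libraries against 5 the smallest p that this test can give is 0.00794. On the line between the group means, detailed further on, DMSO replicate 1 lay with the libraries at 150 pM. On that line 150 pM replicate 1 lay near the DMSO mean. The main results are given with and without each.

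The number of genes called between 150 pM and DMSO depended on the tool and on the libraries used. In edgeR's quasi-likelihood test 0 of 18916 genes (0%) passed an adjusted p of 0.05, and the smallest adjusted p was 0.0556. That value was shared by 32 genes, 24 lower and 8 higher at 150 pM, whose log2 fold changes ran from -3.51 to 1.27. In each of those 32 genes all 5 libraries of one group lay above all 5 of the other, as in 659 of all tested genes (3.48%). The same libraries chose the 32 by their small p, so this separation is largely fixed by the choice. At an unadjusted p under 0.05 there were 3702 genes (19.6%), of which 1921 were higher (10.2% of the genes tested) and 1781 lower (9.42%) at 150 pM. At an adjusted p under 0.10 in edgeR, a threshold chosen after the smallest adjusted p had been seen, there were 464 genes (2.45%), 187 higher and 277 lower. Other tools gave more. DESeq2 called 1264 of the 20552 genes to which it gave an adjusted p (6.15%), 609 higher and 655 lower. With weights for libraries, limma voom called 1493 of 18916 (7.89%), 973 higher and 520 lower. Such weights can count a library unlike its group for less, and they were not examined. All 1195 DESeq2 calls that edgeR also tested had the same direction and an unadjusted p under 0.05 in edgeR. Both tools fit the same counts, so this is no separate support for the calls. In bulk tissue such as this, fewer cells of a type and less RNA per cell cannot be told apart.

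Most differences were small. The median absolute log2 fold change over all tested genes was 0.10, and the 95% interval of a fold change reached a median factor of 1.15 to either side. For 16984 genes, 89.8% of those tested, that interval lay inside a 2-fold change in either direction, and for 14350 genes (75.9%) it lay inside 1.5-fold. Among genes with an unadjusted p under 0.05 the median log2 fold change was 0.31 for those higher and -0.26 for those lower at 150 pM. A 2-fold difference was reached by 155 of the former and by 229 of the latter. Among genes at an adjusted p under 0.10 in edgeR, 10 of the 187 higher genes and 98 of the 277 lower genes were at least 2-fold apart. This split turned with the tool and the libraries. Among calls at an adjusted p under 0.05, DESeq2 had 66 genes at least 2-fold higher and 231 lower, limma voom had 212 higher and 114 lower, and edgeR without DMSO replicate 1 had 284 higher and 234 lower.

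The groups did not overlap in 659 genes (3.48% of the genes tested), with 284 higher at 150 pM in all 5 libraries and 375 lower. Without DMSO replicate 1 there were 2703 such genes of 19065 tested and the balance turned, with 1739 higher and 964 lower. A library fewer or more in itself raises or lowers such counts. Leaving out any other single library gave 776 to 1064. With 150 pM replicate 1 counted as 150 pM there were 269 of 18984 tested, with 100 higher and 169 lower. A 2-fold difference was reached by 11 of the 284 and by 49 of the 375. Of these 659 genes, 276 of the higher and 366 of the lower also had an unadjusted p under 0.05 in edgeR.

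The 4 identifiers given here are, in each direction, the 2 of smallest p among genes whose log2 CPM averaged 1 or more. CPM is the usual library-scaled unit of expression, the count of a gene as a share of the scaled total of its library. The 10 libraries compared chose these genes, so a lack of overlap between the groups in any of the 4 is largely fixed by the choice. Nfu_g_1_018656 (implied length 2893 bases) was at 6.06, 7.39, 11.3, 14.1 and 12.2 CPM in DMSO replicates 1 to 5 and at 0.403, 0.601, 0.665, 2.1 and 0.726 CPM in 150 pM replicates 2 to 6. Every library at 150 pM was below every DMSO library, with DMSO replicate 1 the lowest of its group and 150 pM replicate 5 the highest of its own. The means were 10.2 ± 3.36 CPM in DMSO and 0.900 ± 0.684 CPM at 150 pM (SD, n = 5 each). This is 11.4-fold lower at 150 pM (log2 fold change -3.51, SE 0.42, adjusted p = 0.0556 in edgeR, 95% interval of the ratio 0.0461 to 0.167).

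Nfu_g_1_000973 (1228 bases) had much the same pattern. It was at 5.13, 8.99, 18.0, 11.6 and 14.4 CPM in DMSO replicates 1 to 5 and at 0.605, 0.858, 0.902, 2.26 and 0.677 CPM in 150 pM replicates 2 to 6. Again the groups did not overlap, DMSO replicate 1 was the lowest DMSO library and 150 pM replicate 5 the highest at 150 pM. The means were 11.6 ± 4.95 CPM in DMSO and 1.06 ± 0.681 CPM at 150 pM (SD, n = 5 each), 11-fold lower at 150 pM (log2 fold change -3.46, SE 0.43, adjusted p = 0.0556 in edgeR). The 150 pM libraries held 8 to 41 reads of Nfu_g_1_018656 and 12 to 44 of Nfu_g_1_000973, against at least 100 reads of either in each DMSO library.

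The 2 identifiers that were higher at 150 pM differed far less and varied little within groups. Nfu_g_1_015041 (6036 bases) was at 7.24, 6.78, 7.86, 8.01 and 6.85 CPM in DMSO replicates 1 to 5 and at 9.77, 10.4, 10.4, 9.44 and 10.9 CPM in 150 pM replicates 2 to 6. The ranges did not meet, and the level was 1.39-fold that of DMSO, or 0.47 on the log2 scale (SE 0.07, adjusted p = 0.0556 in edgeR). Nfu_g_1_014264 (8198 bases) was at 138, 130, 117, 131 and 128 CPM in DMSO and at 163, 161, 163, 152 and 151 CPM at 150 pM. It too showed no overlap and was 1.23-fold the DMSO level, or 0.30 on the log2 scale (SE 0.05, adjusted p = 0.0556 in edgeR). For each of the 4 the direction was the same in all 18 other fits. The log2 fold change there ran from -4.07 to -2.28 for Nfu_g_1_018656 and from -3.92 to -2.90 for Nfu_g_1_000973. It ran from 0.42 to 0.51 for Nfu_g_1_015041 and from 0.23 to 0.33 for Nfu_g_1_014264. In each of the 4 it was smallest in size with 150 pM replicate 1 counted as 150 pM. Those fits reuse all or most of the libraries that chose the genes, so the direction was all but fixed by the choice. Their adjusted p-values ran from 5.87e-15 to 0.276 for Nfu_g_1_018656 and from 1.67e-14 to 0.291 for Nfu_g_1_000973. They ran from 0.000298 to 0.276 for Nfu_g_1_015041 and from 1.40e-05 to 0.315 for Nfu_g_1_014264. Counts of any of them could be shared with an overlapping gene, since the libraries do not mark strand, or with a close copy.

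The libraries outside the comparison did not place these 4 genes alike. In 15 pM replicates 1, 2 and 4, Nfu_g_1_018656 was at 0.767, 0.730 and 0.895 CPM and Nfu_g_1_000973 at 0.240, 0.779 and 0.895 CPM, below every DMSO library and among or below the libraries at 150 pM. In 15 pM replicate 3 they were at 52.2 and 68.6 CPM, above all other libraries. In the left-out 150 pM replicate 1 they were at 8.01 and 3.98 CPM, in the first gene within the DMSO range and in the second between the groups. Nfu_g_1_014264 was at 91.7 to 137 CPM at 15 pM and at 114 CPM in 150 pM replicate 1, so that none of these 5 libraries reached the lowest of the 150 pM libraries compared. Nfu_g_1_015041 was at 9.87, 9.30, 13.9 and 6.18 CPM in 15 pM replicates 1 to 4 and at 8.01 CPM in 150 pM replicate 1. All of these libraries are set against the same DMSO libraries as the higher dose.

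**Figure D1:**
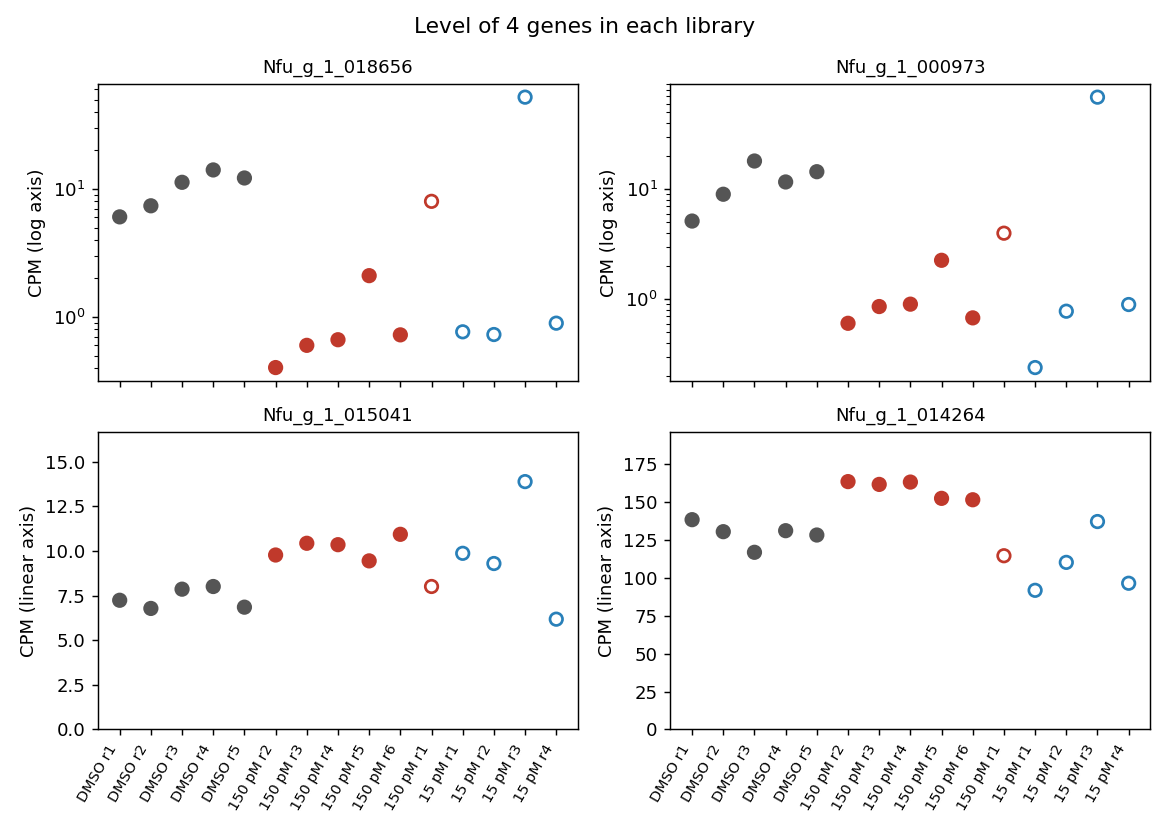
Level in CPM (log axis above, linear axis from 0 below) of the 2 genes of smallest p in each direction, 1 point per library. Filled points are the 10 libraries compared (grey DMSO, red 150 pM), open points the libraries outside the comparison (red 150 pM replicate 1, blue 15 pM). In all 4 genes the filled grey and red points do not overlap, which the choice of the genes largely fixes. The blue point of 15 pM replicate 3 is highest in Nfu_g_1_018656 and Nfu_g_1_000973, at 52.2 and 68.6 CPM.

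Whole profiles differed between the groups by a pseudo-F of 2.52, which is 23.9% of the variation among the 10 libraries (exact permutation p = 0.0397 over all allocations of the libraries to 2 groups of 5). Without DMSO replicate 2 this was 1.93 (exact permutation p = 0.0556), and without DMSO replicate 1 it was 3.62 (exact permutation p = 0.00794, the smallest that 126 allocations can give). Principal component 1 carried 32.3% of the variance. All 5 libraries at 150 pM lay between 19.2 and 28.1 on it, DMSO replicates 2 to 5 between -39.1 and -26.5, and DMSO replicate 1 at 20.7, among the libraries at 150 pM. The difference of the group means on this component was 43.6 (exact permutation p = 0.0317, adjusted 0.222 over the 8 properties). Components 2 and 3 (19.4% and 11.2% of the variance) did not separate the groups (exact permutation p = 0.659 and 0.690, adjusted 0.789 for both).

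DMSO replicate 1 thus stood apart from its group. Each library was placed on the line between the means of the groups, computed without the library itself, where 0 is the DMSO mean and 1 the mean at 150 pM. DMSO replicates 2 to 5 lay at -0.120, -0.0315, 0.245 and 0.0578, and the libraries at 150 pM between 0.720 and 0.914. DMSO replicate 1 lay at 0.879, inside the range of the 150 pM libraries. The left-out 150 pM replicate 1 lay at 0.0260 and the 4 libraries at 15 pM between -0.337 and 0.0239, all at the DMSO end. A place near 0 on this line does not show that the rest of a profile is like DMSO. In the 2-fold groups given below, the medians of 150 pM replicate 1 lay outside those of DMSO replicates 2 to 5. When the other 9 libraries were used to find genes whose groups did not overlap, DMSO replicate 1 was nearer to the mean at 150 pM in 2234 of 2697 such genes (82.8%). For the other 9 libraries, taken in turn, the share of genes in which the library was nearer to the other group ran from 17.4% (DMSO replicate 2) to 38.8% (150 pM replicate 6). Whether DMSO replicate 1 differs through its label, its handling or the fish was not tested.

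**Figure D2:**
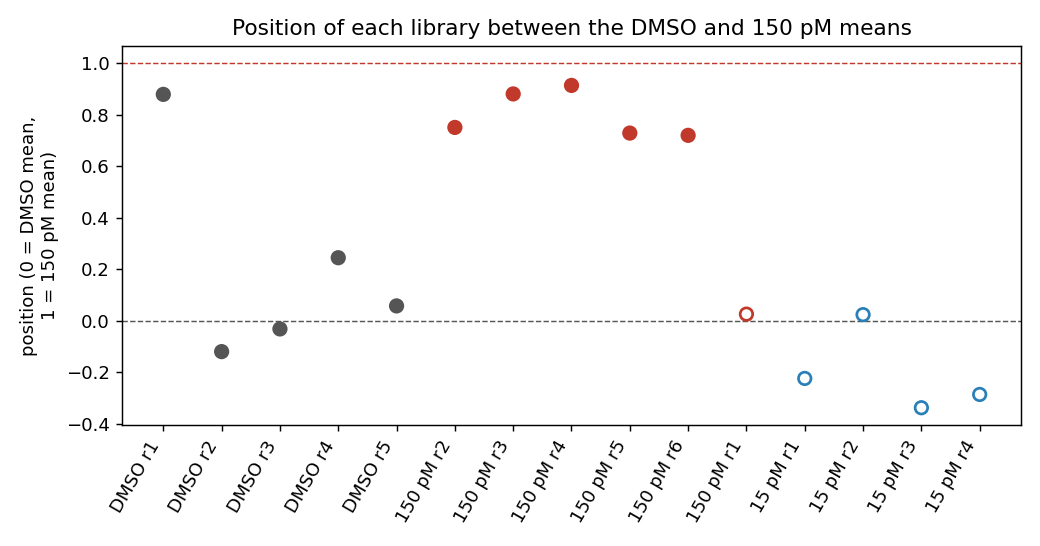
Position of each library on the line from the DMSO mean (0) to the mean at 150 pM (1), each computed without the library itself, over the 18916 tested genes. Filled points are the 10 libraries compared, open points the left-out 150 pM replicate 1 (red) and the libraries at 15 pM (blue). DMSO replicate 1 lies at 0.879 with the red filled points, and both kinds of open point lie at or below 0.0260.

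The number of genes past the threshold followed that library. Without DMSO replicate 1, edgeR called 2190 of 19065 genes (11.5%), of which 1467 rose and 723 fell at 150 pM. These calls are conditional on leaving out the DMSO library that lay with those at 150 pM. They describe how the count depends on it and are not evidence of a group difference. The median log2 fold change of these calls was 0.47 for the rises and -0.60 for the falls, and 284 rises and 234 falls reached 2-fold. Of the 2162 called genes that were also tested with all 10 libraries, all had the same direction there and 1954 had an unadjusted p under 0.05. Both fits share most libraries, so the shared direction is no separate support. In 1891 of the 2162, DMSO replicate 1 was nearer to the mean at 150 pM than to that of the other DMSO libraries. Over the genes higher at 150 pM it exceeded the other DMSO libraries by a median of 0.50 log2 units, against 0.46 for the libraries at 150 pM, and over those lower it was below them by a median of -0.40, against -0.56. Leaving out any other single library gave 12 calls without 150 pM replicate 2, 2 without 150 pM replicate 5 and 0 in the 7 other cases, with between 2825 and 3503 genes at an unadjusted p under 0.05.

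**Figure D3:**
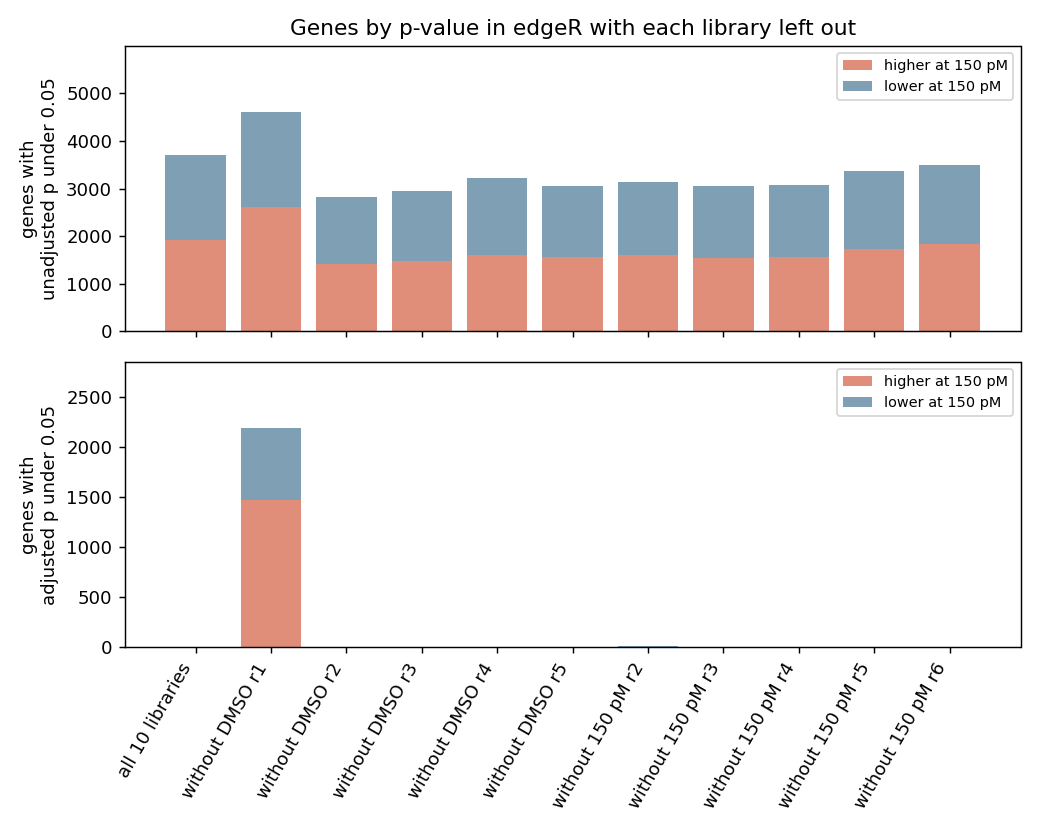
Number of genes with an unadjusted p under 0.05 (upper bars) and with an adjusted p under 0.05 (lower bars) in edgeR, with all 10 libraries and with each left out in turn, divided into genes higher and lower at 150 pM. Only without DMSO replicate 1 does the lower bar become large, at 2190 genes.

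The 2-fold groups showed how the libraries differed. Across the genes at least 2-fold lower, the median level relative to the DMSO mean of each gene was between -1.52 and -1.18 log2 units in the libraries at 150 pM. It was 0.43, 0.14, -0.10 and 0.60 in DMSO replicates 2 to 5 and -1.06 in DMSO replicate 1. These 10 libraries chose the genes, so their values are a description. In the libraries that did not choose them, the median was -1.34, -1.24 and -1.36 in 15 pM replicates 1, 2 and 4, 1.25 in 15 pM replicate 3 and -0.83 in 150 pM replicate 1. In 153 of these genes (66.8%), 15 pM replicate 3 was the highest of all 15 libraries, as against 18.7% of all tested genes. These values are set against the same DMSO libraries that chose the genes as high in DMSO, so that lower values in other libraries are in part fixed by the choice, and nothing is read from them about the lower dose. The median over all tested genes lay between -0.00743 and 0.0127 in each of the 15 libraries.

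For the 155 genes at least 2-fold higher the same limit holds, with the choice working in the other direction. Their median relative level was between 1.01 and 1.68 log2 units in the libraries at 150 pM, 1.43 in DMSO replicate 1 and between -0.69 and -0.21 in DMSO replicates 2 to 5. It was -1.19, -0.97, -0.41 and -1.57 in 15 pM replicates 1 to 4 and -0.97 in 150 pM replicate 1. No library at 15 pM had a median above that of the highest of DMSO replicates 2 to 5. The highest of the 15 libraries was DMSO replicate 1 in 12 of these genes (7.74%, against 6.16% of all tested genes). It was a library at 15 pM in 2 and one of the 5 at 150 pM in the remaining 141. The choice of genes high at 150 pM largely fixes that last count.

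**Figure D4:**
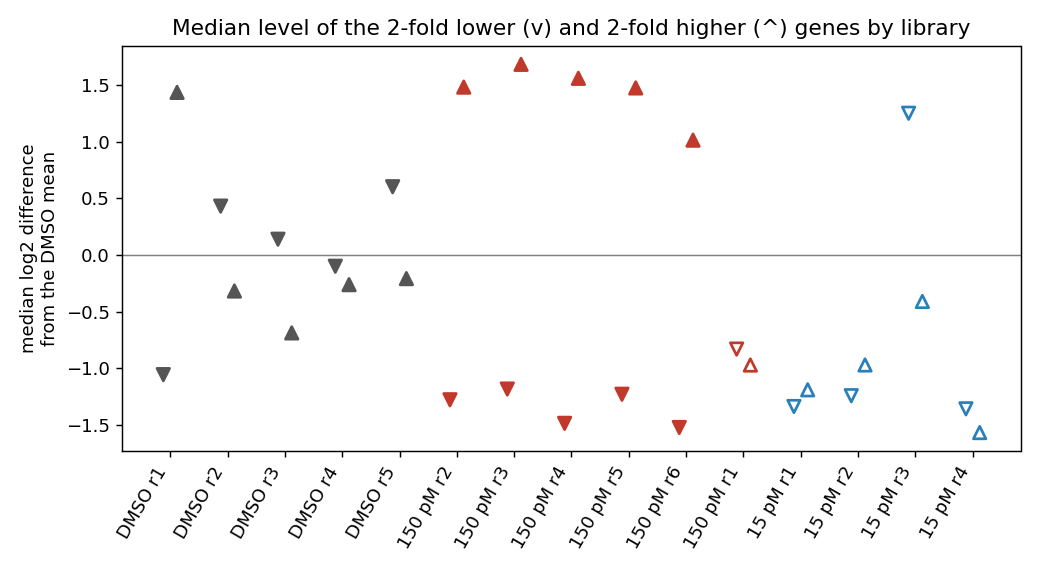
Median over genes of the log2 CPM relative to each gene's DMSO mean, by library, for the genes at least 2-fold lower (downward triangles) and at least 2-fold higher (upward triangles) at 150 pM with an unadjusted p under 0.05. Filled symbols are the libraries that chose the genes and open symbols those that did not. DMSO replicate 1, at -1.06 and 1.43, lies with the 150 pM libraries in both groups, and 15 pM replicate 3 has the highest median of the lower genes, at 1.25.

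Among genes with an unadjusted p under 0.05, direction differed with gene length. Lengths were implied by the deposited counts and RPKM values, and tested genes were put by length into 4 classes of about the same size. Up to 4725 bases, 39.9%, 45.4% and 43.2%, from the shortest class on, of the genes with an unadjusted p under 0.05 were higher at 150 pM. In the longest class (4726 to 88562 bases) 839 genes were higher and 352 lower, which is 70.4% higher. The longest class also held the largest share of genes at that p, 25.2% of its members against 14.9% to 19.7% in the others. Of the calls without DMSO replicate 1 that were also tested with all 10 libraries, 707 rises and 129 falls belonged to the longest class. The other classes, from the shortest on, held 198, 297 and 263 rises and 138, 205 and 225 falls. In that fit 11.5% of all genes tested were called, and 67.0% of all its calls rose. The share higher in the longest class lay between 55.1% (with 150 pM replicate 1 counted as 150 pM, 332 higher and 270 lower) and 76.3% (without DMSO replicate 1) over the other fits, apart from that with the length trend of each library removed, in which it was 51.5% (591 higher, 556 lower). That fit levels the trend with length in each library. A share close to that of the shorter genes, 49.7% in the same fit, was therefore largely fixed in advance.

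As a property of libraries the length trend did not separate the groups. Spearman's rho of the level per length with length, across genes of 1 library, averaged -0.145 for DMSO (SD 0.00936, 5 libraries) and -0.136 for 150 pM (SD 0.00526, 5 libraries), with an exact permutation p of 0.0952 (adjusted 0.222). With the level taken relative to the mean of the 10 libraries, a measure added after the data had been seen, rho was 0.102 in DMSO replicate 1 and -0.0457, -0.0903, -0.0603 and -0.160 in DMSO replicates 2 to 5. At 150 pM it was 0.109, 0.0566, 0.0728, -0.0190 and 0.0429 in replicates 2 to 6. DMSO replicate 1 was second only to 150 pM replicate 2, and the remaining libraries of the 2 groups did not overlap. The group means were -0.0510 and 0.0525 (exact permutation p = 0.0794), and without DMSO replicate 1 the exact permutation p was 0.0159. The latter p is conditional on leaving out the DMSO library of highest rho and is no test of the groups. The part of this trend in the differences of single genes was not tested beyond the fit that removes it, in which 0 genes passed in edgeR and 3597 had an unadjusted p under 0.05.

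**Figure D5:**
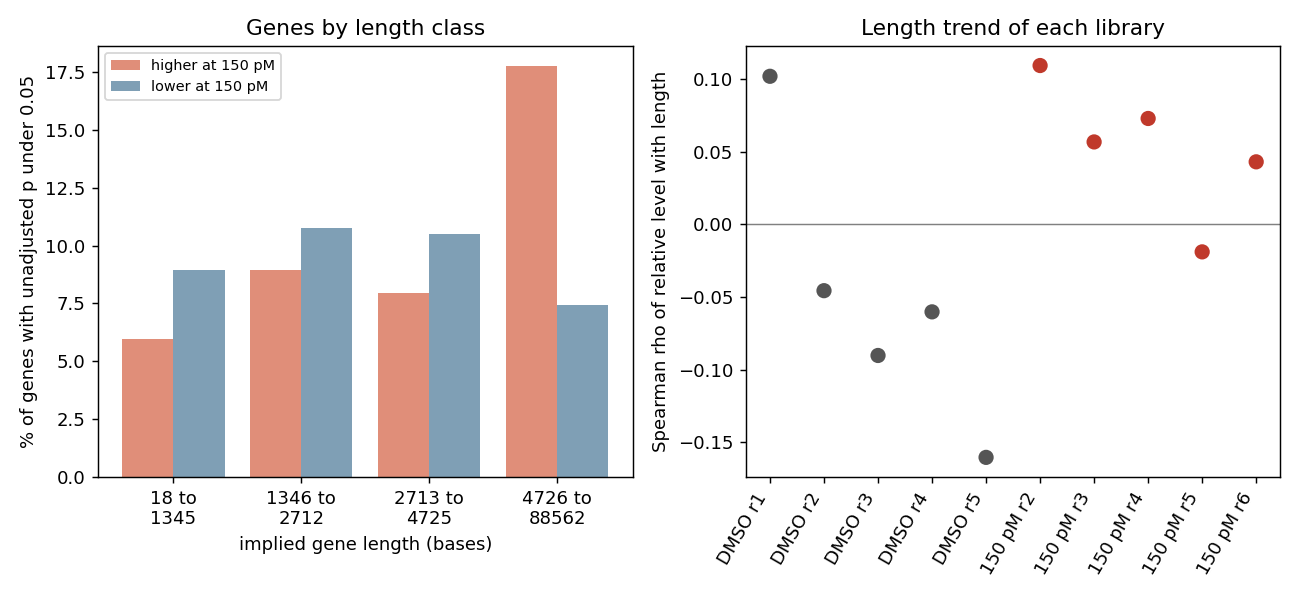
Left, genes with an unadjusted p under 0.05 that were higher or lower at 150 pM, as a percentage of all tested genes of their implied length class. Right, Spearman's rho of the level relative to the mean of the 10 libraries with implied length, across genes, 1 point per library. The longest class has 839 genes higher and 352 lower, and DMSO replicate 1, at 0.102, lies with the 150 pM libraries.

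In the concentration of counts and in distance from its group, DMSO replicate 1 lay at the edge of the DMSO libraries. Each library's own 50 most abundant genes took on average 9.20% ± 0.394 of its counts in DMSO and 8.76% ± 0.0578 at 150 pM (SD, n = 5 each, exact permutation p = 0.0556, adjusted 0.222). DMSO replicate 1, at 8.68%, was below all 5 libraries at 150 pM (8.71% to 8.85%), and DMSO replicates 2 to 5 lay above them, from 8.93% to 9.62%. The distance of a library from the centre of the rest of its group, in log2 CPM over all tested genes, was 54.5 ± 7.55 in DMSO and 47.3 ± 4.13 at 150 pM (exact permutation p = 0.111, adjusted 0.222), and it was largest, at 65.1, in DMSO replicate 1. The median SD of a gene was 0.142 log2 units over the 5 DMSO libraries, 0.126 over the 5 at 150 pM and 0.128 over DMSO replicates 2 to 5. No other library was left out of this measure.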

How the data were processed

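The labels' protocols give the TruSeq RNA v2 kit for these brain libraries, a kit without strand marking. Per the submitters' processing notes the tools were featureCounts 1.4.6-p4, STAR 2.4.1d and CASAVA 1.8.2. For the build, annotation and counting settings, nothing is given in the sources read. As their tables show, the authors deposited whole-number counts per gene for 15 libraries, not normalized as far as their values show, and an RPKM table. Only 6.67% of the deposited RPKM values had been divided by the total of their own library (in 6891 well-counted genes, taking the 15 totals in turn down the columns brought the libraries to 1 length per gene within a median of 4.04e-05 log2 units, against 0.237 with each library's own total), so RPKM served only to recover an implied length per gene.

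Libraries were grouped by the labelled treatment and the 150 pM library of doubtful dose was left out. Replicates were numbered in the order of listing, which pairs no libraries. No 2 of the 10 libraries agreed within sampling noise (smallest chi-square per degree of freedom 7.11). In R 4.3.3, genes were kept with filterByExpr, scaled with TMM and tested by quasi-likelihood in edgeR 4.0.16 with robust estimation, on the 10 libraries, with Benjamini-Hochberg adjustment over all tested genes and a threshold of 0.05. SE is the absolute log2 fold change over the square root of F. DESeq2 1.42.0, limma 3.58.1 (voom with library weights), other scalings and filters, a fit with the 15 pM libraries and fits without each library were alternatives. Log2 CPM used a prior count of 2. CPM of single genes was scaled by TMM over all 15 libraries. Library properties and whole profiles were compared with two-sided exact permutation tests over libraries; the pseudo-F used Euclidean distances.

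The identifiers matched 0 entries of the gene table, so the 13 gene lists prepared for mitochondrial, stress, neuronal, glial and other genes were not run. The rule for named genes without names was to print 2 identifiers in each direction, those of smallest p whose log2 CPM averaged 1 or more. The comparison, rules and lists were chosen with earlier results of these data known.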

Additional observations from a re-analysis of the deposited data

Results flagged for a closer look

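Of 26 groups of values tested with Dixon's gap test, 4 had 1 library far from the rest of its group, where chance gives about 1 in 20 groups. The groups of values are not independent, and 2 of the 4 flags are 1 library in 2 genes of much the same pattern. No excess over chance is therefore read from this count. DMSO replicate 1 was far from the other DMSO libraries on the first principal component, at 20.7. On the same component 150 pM replicate 4, at 28.1, was far from the other libraries at 150 pM. In 150 pM replicate 5, Nfu_g_1_018656 and Nfu_g_1_000973 were at 2.1 and 2.26 CPM, far above the other libraries of that dose and still below every DMSO library.

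In libraries that the comparison does not use, some of the 4 genes exceeded every DMSO library. Nfu_g_1_018656 and Nfu_g_1_000973 were at 52.2 and 68.6 CPM in 15 pM replicate 3. Nfu_g_1_015041 was at 9.87, 9.30 and 13.9 CPM in 15 pM replicates 1 to 3, and at 8.01 CPM in 150 pM replicate 1, which to that precision equals the highest DMSO library. The causes of these values were not tested.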

How the results depend on the processing

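The count of genes past an adjusted p of 0.05 was 0 in edgeR with the 10 libraries, with RLE size factors, with the length trend removed, with no filter on low counts, with the 15 pM libraries in the fit and with 150 pM replicate 1 counted as 150 pM. It was 1264 in DESeq2, 1493 in limma voom, 2 in edgeR without robust estimation and 464 at a threshold of 0.10 (the last 2 settings were chosen after seeing the data), and 0 to 2190 with 1 library left out. The 3702 genes at an unadjusted p under 0.05, also counted after seeing the data, became 2454 with the 15 pM libraries in the fit and 2281 with 150 pM replicate 1, where 39.6% were higher at 150 pM instead of 51.9%, and 2825 to 4614 with 1 library left out. Of the calls, 48.2% rose in DESeq2, 65.2% in limma voom and 67.0% without DMSO replicate 1. Genes without overlap numbered 659, 269 with 150 pM replicate 1 and 776 to 2703 with 1 library left out (998 and 1064 without 150 pM replicates 5 and 6). A library fewer or more in itself raises or lowers this count. The pseudo-F lay between 1.93 and 3.62 with 1 library left out, and its exact permutation p rose above 0.05 only without DMSO replicate 2. With 1 library left out, the difference of 150 pM minus DMSO lay between 39.7 and 57.1 on the first component. It lay between -0.581 and -0.345 percentage points for each library's own 50 most abundant genes and between 0.00580 and 0.0129 for rho with length. With 150 pM replicate 1 counted as 150 pM, these differences were 32.8, -0.318 and 0.00726 (exact permutation, adjusted p = 0.368 for each). The 3 properties passed an adjusted p of 0.05 only without DMSO replicate 1 (exact permutation, adjusted p = 0.0317, 0.0317 and 0.0423). Those values are conditional on removing the DMSO library that stood apart from its group. The causes were not tested. No paired analysis was possible because the title numbers of the groups compared share no number and the order of listing pairs no libraries. Depth limits genes of few reads, and 10.2% of the intervals reached 2-fold.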

Other observations

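In 4 classes of equal size by mean log2 CPM, 16.2%, 17.6%, 21.3% and 23.2% of the genes, from the lowest class to the highest, had an unadjusted p under 0.05 in edgeR. Counts are higher and the test more powerful in the higher classes, and the difference between classes was not tested. The lowest class held 335 such genes higher at 150 pM and 430 lower. The highest class held 581 higher and 515 lower. Of the 4729 genes in the highest class, the groups did not overlap in 60 that were higher and 139 that were lower. The other classes, from the lowest on, held 51, 75 and 98 such genes higher and 77, 81 and 78 lower. Over all tested genes, 1.5% were higher and 1.98% lower without overlap. The difference between classes in these counts was not tested. Of the 50 genes of highest mean CPM over the 10 libraries, 4 were higher and 6 lower at an unadjusted p under 0.05. An adjusted p under 0.10 in edgeR was reached by 1 of them. Over all tested genes the shares were 10.2% higher, 9.42% lower and 2.45% at an adjusted p under 0.10. Nothing particular to abundant genes is read from these few counts.

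Genes counted in every library of one group and in none of the other were rare. In 2 genes every DMSO library held at least 1 count and all 5 libraries at 150 pM held 0, and in 2 genes the reverse held.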
